A study of Homo sapiens with 13 samples.

Results

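The genes described here are the alpha-type and beta-type globin genes, which encode the protein chains of haemoglobin. The 10 genes HBE1, HBG1, HBG2, HBD, HBB, HBZ, HBM, HBA1, HBA2 and HBQ1 were looked up by the gene symbol that the array files give each probe. The symbols matched 12 of 42405 probes, and these 12 probes occupied 35 of 58717 spots and named 8 of the 10 genes, of 21789 gene symbols in all. No probe carried the symbol HBG2 or HBA1. By the transcripts that the files list for each probe, both HBG1 probes match HBG1 and HBG2, and HBA2 probes 2 and 3 match HBA1 and HBA2. Their values are therefore those of the gene pair. The other 8 probes match 1 globin gene each.

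RNA came from HEK293T cells, a line from human embryonic kidney and not from blood. Each of 13 Agilent Human 8x60K arrays set a treated RNA against its control RNA, with 1 in the dye Cy3 and the other in Cy5. UNC0638 inhibits G9a and GLP, histone methyltransferases encoded by EHMT2 and EHMT1, and was used at 1 µM for 48 h and set against an equal volume of its solvent DMSO in 5 biological replicates on 7 arrays. WIZ is a zinc finger partner of both enzymes, and its siRNA was set against a control siRNA at 72 h in 2 biological replicates on 4 arrays. An siRNA against G9a was set against a control siRNA at 72 h in 2 biological replicates on 2 arrays. UNC0638 replicates 1 and 2 and both WIZ siRNA replicates were hybridised in both dye orientations. UNC0638 replicates 3 to 5 and the G9a siRNA replicates had the treated RNA in Cy5 alone. All cells were of 1 line grown in serum, all siRNA cells, their controls included, had been exposed to a lipid transfection reagent, and nothing in the labels tells if WIZ siRNA and G9a siRNA were set against the same control RNA.

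Haemoglobin joins alpha-type and beta-type chains around heme and is made in bulk by red cell precursors. The beta-type genes lie side by side on chromosome 11 in the order of their use, with HBE1 read in the embryo, HBG2 and HBG1 in the fetus, and HBD and HBB after birth. The alpha-type genes lie on chromosome 16, with HBZ read in the embryo and HBA2 and HBA1 in the fetus and adult, beside the little-used genes HBM and HBQ1. Outside red cell precursors both clusters are held largely silent. Methylation of histone H3 at lysine 9 by G9a and GLP is among the marks of silent genes, and inhibitors of these enzymes are known to raise fetal globin in cultured adult erythroid cells.

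Letters are given for 7 of the 12 probes. Those of some probes, whole or in part, are shown here, 5′ to 3′ in the sense of the transcript, with positions on build 37.1. HBG1 probe 1 runs through the end of the coding sequence, and its stop codon is in capitals. Its first 30 bases are printed, and the whole probe matches 59 bases on the minus strand at both chr11:5269535-5269593 and chr11:5274453-5274511, in HBG1 and in HBG2, so it cannot tell them apart. HBE1 is read in its leader just before the start codon, at chr11:5291121-5291150 on the minus strand for the last 30 bases shown.
HBG1 probe 1: acTGAgctcactgcccatgatgcagagctt
HBE1: aatcactagcaagctctcaggcctggcatc

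The HBA2 probes differ in the genes listed for them. HBA2 probe 1 is shown up to its stop codon, in capitals, at chr16:223560-223599 on the plus strand, at the end of the coding sequence. The whole probe is listed for HBA2 alone. Its bases beyond the stop codon are not printed, and whether it also binds HBA1 RNA was not tested. HBA2 probe 2 lies at the start of the coding sequence, with the start codon in capitals, and the bases shown match chr16:222912-222948 in HBA2 and chr16:226716-226752 in HBA1.
HBA2 probe 1: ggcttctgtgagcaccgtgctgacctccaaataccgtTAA
HBA2 probe 2: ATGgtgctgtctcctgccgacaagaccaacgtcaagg

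The 7 probes with a sequence were compared with each other and had little of it in common. They were not compared with the transcripts of other globins. Short shared runs therefore do not show whether a probe also binds RNA of another globin. Over the 21 pairs of the 7 probes with a sequence, the longest shared run was 5 to 9 bases of 60, and the longest lay in HBD and HBQ1, where it is in capitals. The HBD probe lies in coding sequence at chr11:5255258-5255317 on the minus strand. The HBQ1 probe crosses an exon junction on the plus strand, with 7 bases at chr16:230574-230580 and 53 at chr16:230665-230717. The HBB probe, not printed, lies beyond the stop codon at chr11:5246718-5246777 on the minus strand.
HBD: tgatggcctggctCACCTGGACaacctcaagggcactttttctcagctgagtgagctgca
HBQ1: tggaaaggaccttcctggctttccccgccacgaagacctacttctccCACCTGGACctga

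The arrays set limits that touch these genes. Median spot brightness was 194 to 415 in Cy3, where the background was 28 to 30, and 151 to 638 in Cy5, where it was 45 to 68, and precision is limited by how many arrays there are. The channel of each dye was assigned so that WIZ and EHMT2 were the lower in their own knockdown, so their direction is no independent check, with WIZ between -2.33 and -1.93 on the log2 scale and EHMT2 at -1.67 and -1.65. A probe was taken as measured on an array side where it exceeded its background median by more than 2.6 background SDs. Over all probes, the orientations of a dye-swapped pair correlated at only 0.04 and 0.02 in UNC0638 and at -0.50 and -0.36 under WIZ siRNA, so a mean over both dyes is used. UNC0638 replicate 3 stood apart, with correlations of 0.87 and 0.83 with G9a siRNA replicates and 0.10 to 0.64 with the other UNC0638 replicates. Replicate 4 correlated with both G9a siRNA replicates at 0.47, above its 0.19 to 0.35 with UNC0638 replicates 1, 2 and 5. For replicate 5 the correlations with the other UNC0638 replicates were 0.04 to 0.43. Log2 ratios also followed the GC content of the probe, most under G9a siRNA and in UNC0638 replicate 3. The correlations were -0.48 and -0.50 under G9a siRNA and -0.42 in UNC0638 replicate 3, against -0.23 to 0.17 in the other 6 replicates.

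Embryonic HBE1 and the fetal HBG1/HBG2 probe 1 were higher in UNC0638-treated cells. Of the 12 globin probes, these 2 passed the test, both upward, where 3.24% of all 34619 probes tested passed in either direction and 1.57% upward. HBE1 was 1.62-fold and HBG1 probe 1 1.76-fold the DMSO level. HBG1 probe 2, which reads the same genes and is the brighter probe, had a mean log2 ratio of 0.35 and was not called (adjusted p = 0.133 in limma). The size of the HBE1 difference depended on the processing, with a mean log2 ratio of 0.70 here, 1.36 with plain background subtraction, 1.35 with the authors' log2 ratio and 1.72 with their log10 table, and replicates 3 and 5 were measured on neither side. The adult genes HBD and HBB lay close to 0 in the same cells. Over other settings HBD ranged from -0.26 to 0.03 and HBB from -0.24 to 0.01, and neither was called. HBB was measured on 2 of 7 UNC0638 sides and 1 of 7 DMSO sides, so a change below the background would not be seen. The cells are measured in bulk, so more cells with globin RNA and more RNA per cell cannot be told apart.

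HBE1, the embryonic beta-type chain, read 314.5 brightness units in UNC0638 RNA against 157.5 in DMSO RNA on the first array of replicate 1, and 405 against 147 with the dyes swapped. Replicate 2 read 231.5 in UNC0638 RNA against 114 in DMSO RNA, and 265 against 101 with the dyes swapped. Replicates 3, 4 and 5 read 109, 133 and 104 in UNC0638 RNA against 57, 53.5 and 53 in DMSO RNA. The UNC0638 side was the brighter on all 7 arrays. However, the local background was 48 to 60 in Cy5 and 26 to 29.5 in Cy3, so the readings of replicates 3 to 5 lay close to it, and the HBE1 probe counted as measured on 5 of 7 UNC0638 sides and 4 of 7 DMSO sides.

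After normalization the log2 ratio of HBE1 was 1.20, 0.89, 0.50, 0.56 and 0.36 in UNC0638 replicates 1 to 5, and every replicate lay above 0. All 14 spots were above 0. The mean was 0.70 (SE 0.11, 95% interval 0.46 to 0.94, n = 5, adjusted p = 0.0085 in limma). Replicates 1 and 2 averaged 1.04, and replicates 3 to 5, fitted alone, averaged 0.47 with adjusted p = 0.227. With the UNC0638 replicates fitted without the siRNA replicates the adjusted p was 0.0588.

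Under WIZ siRNA, HBE1 lay at -0.09 and -0.13, and all 8 spots were below 0. It was measured on 2 of 4 WIZ siRNA sides and 2 of 4 control sides, in Cy3 alone, and so on both sides of no array. The readings were 103 and 101.5 in WIZ siRNA RNA against 147.5 and 130.5 in control RNA when the treated RNA was in Cy3, and 99 and 108.5 against 83.5 and 103.5 with the treated RNA in Cy5. Neither difference passed the test (mean -0.11, SE 0.17, n = 2, adjusted p = 1.00 in limma). Under G9a siRNA it lay at 0.11 and 0.22, with readings of 73 and 72.5 in G9a siRNA RNA against 52.5 and 52.5 in control RNA. Neither side counted as measured on these 2 arrays, so no fold is given for HBE1 there. The mean of 0.17 was not called (adjusted p = 0.495 in limma), but HBE1 was called higher under G9a siRNA in 4 of 20 other settings. These were plain background subtraction and the authors' log2 ratio, both at 0.65, the authors' log10 table at 0.90 and the trend on GC content removed at 0.60.

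**Figure D1:**
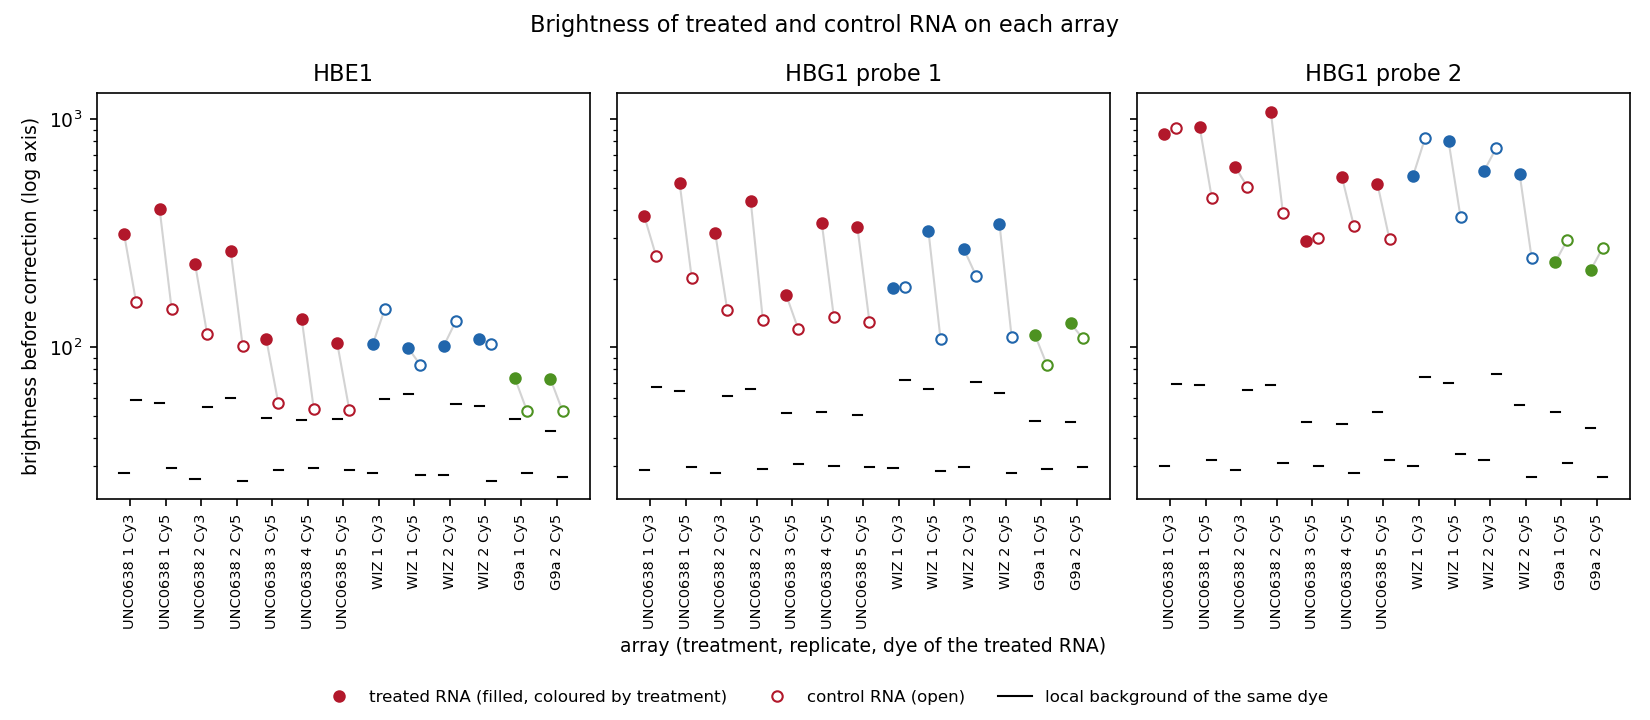
Mean spot brightness on a log axis for HBE1 and the 2 HBG1 probes on each of the 13 arrays, with filled points for treated RNA, open points for control RNA and short lines for the local background of each channel. HBE1 readings of 104 to 133 in UNC0638 replicates 3 to 5 sit nearer the background lines than those of 231.5 to 405 in replicates 1 and 2.

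HBG1 probe 1, which reads both fetal gamma chains, is printed as 10 spots on every array. In UNC0638 replicate 1 it read 377.9 in UNC0638 RNA against 250.2 in DMSO RNA, and 523.1 against 201 with the dyes swapped. Replicate 2 read 317.2 against 145.2, and 438.5 against 132.1 with the dyes swapped. Replicates 3, 4 and 5 read 169.3, 349.8 and 338.2 in UNC0638 RNA against 119.7, 135.3 and 129.2 in DMSO RNA. UNC0638 RNA was the brighter on all 7 arrays, by the least in replicate 3. These readings are before correction, and the local background was 50.2 to 67 in Cy5 and 28.2 to 30.6 in Cy3. HBB likewise read brighter in UNC0638 RNA wherever that RNA was in Cy5, though its log2 ratios lay near 0. The brighter side in Cy5 is therefore no support by itself.

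The log2 ratios of HBG1 probe 1 were 0.98, 1.16, 0.31, 0.73 and 0.90 in UNC0638 replicates 1 to 5. All 70 spots lay above 0, with an SD among the 10 spots of an array of 0.08 to 0.15. The mean was 0.82 (SE 0.11, 95% interval 0.58 to 1.05, n = 5, adjusted p = 0.00363 in limma). Leaving out replicate 3 gave 0.94, replicates 1 and 2 averaged 1.07, and replicates 3 to 5, fitted alone, averaged 0.65 with adjusted p = 0.239. The 2 dye orientations gave near values, at 1.03 and 0.94 in replicate 1 and 1.21 and 1.11 in replicate 2.

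WIZ siRNA gave a mean of the same size at HBG1 probe 1 that did not pass the test over all probes. It read 182.4 and 268.8 in WIZ siRNA RNA against 184.1 and 205.9 in control RNA when the treated RNA was in Cy3, and 324.2 and 347.7 against 108.9 and 111.4 with it in Cy5. The log2 ratios were 0.57 and 0.83 on the Cy3 arrays and 0.93 and 1.10 on the Cy5 arrays, and all 40 spots were above 0. The replicate means of 0.75 and 0.96 gave 0.86 (SE 0.17, 95% interval 0.48 to 1.23, n = 2, adjusted p = 0.0735 in limma), or 1.81-fold. No globin probe passed under WIZ siRNA, where 0.508% of all probes did, and in limma 4 of the 12 had an unadjusted p under 0.05, which were both HBG1 probes and HBA2 probes 1 and 2. HBG1 probe 1 was called under WIZ siRNA in 5 of 20 other settings. Among fits with 1 replicate left out, its lowest adjusted p was 0.00837 in limma, without UNC0638 replicate 3. That replicate enters through the shared estimate of the spread. The probe was not called in every such fit, and its mean was 0.75 to 0.96 over them.

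Under G9a siRNA, HBG1 probe 1 read 112.9 and 127.1 in G9a siRNA RNA against 83.3 and 109.6 in control RNA. The log2 ratios were 0.25 and 0.33, with 19 of 20 spots above 0 and an SD among spots of 0.15 and 0.18. The mean was 0.29 (SE 0.17, n = 2, adjusted p = 0.216 in limma), so no difference beyond the spread was found.

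**Figure D2:**
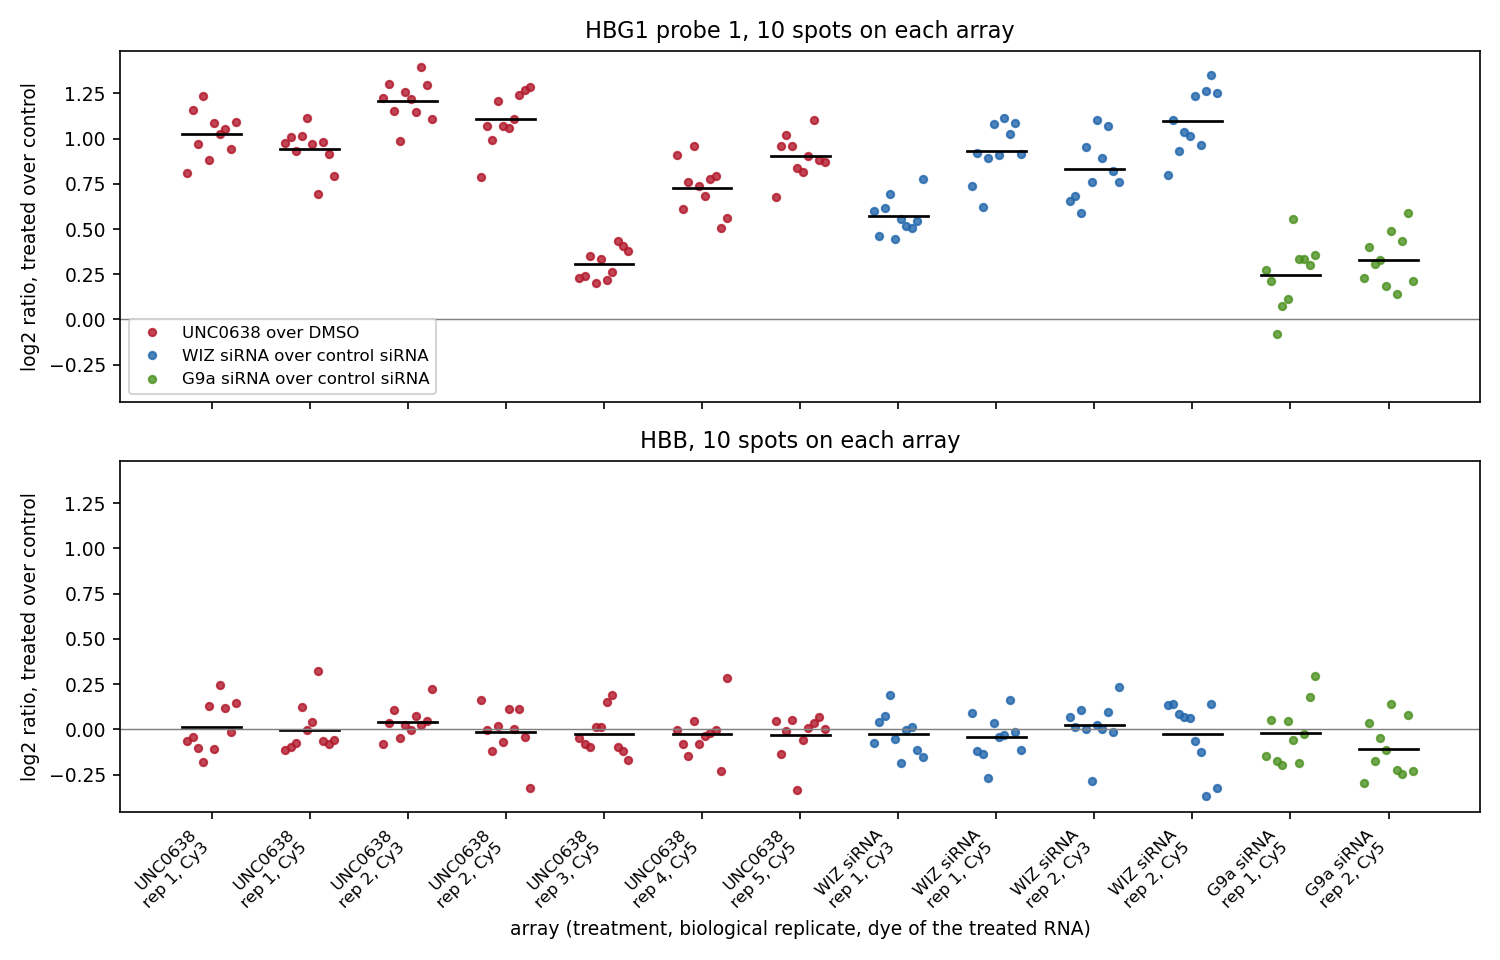
Log2 ratio of treated over control RNA for each of the 10 spots of HBG1 probe 1 and of HBB on the 13 arrays, with a bar at the mean of an array. HBG1 probe 1 spots lie above 0 in 70 of 70 cases in UNC0638 and 40 of 40 under WIZ siRNA, while HBB spots scatter around 0.

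HBG1 probe 2 also reads HBG1 and HBG2 and was measured on both sides of all 13 arrays. Its log2 ratios were 0.49, 0.73, -0.12, 0.18 and 0.47 in UNC0638 replicates 1 to 5. It lay at 0.40 and 0.52 with WIZ siRNA and at -0.29 and 0.05 with G9a siRNA. Each of these 9 values was below that of HBG1 probe 1 in the same replicate. None of the 3 means passed the test (0.35, SE 0.11, adjusted p = 0.133 in UNC0638; 0.46, SE 0.17, adjusted p = 0.491 under WIZ siRNA; -0.12, adjusted p = 0.650 under G9a siRNA, in limma). Without UNC0638 replicate 3 the UNC0638 mean was 0.47 with adjusted p = 0.0255 in limma. Over the fits with 1 replicate left out that mean was 0.26 to 0.47, with adjusted p up to 0.231 in limma. It was called in 3 of 25 other settings.

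No mean of the adult beta-type genes passed the test in any treatment, although under G9a siRNA both genes were called in 1 other setting each. HBB, the main adult beta chain, is also printed as 10 spots, and it read 58.6 to 101.4 in UNC0638 RNA against 42.4 to 112.1 in DMSO RNA, near the background throughout. Its log2 ratios were 0.01, 0.01, -0.03, -0.03 and -0.03 in UNC0638, -0.04 and -0.00 with WIZ siRNA, and -0.02 and -0.11 with G9a siRNA. In UNC0638 31 of 70 spots were above 0, under WIZ siRNA 20 of 40, and under G9a siRNA 7 of 20. The mean in UNC0638 was -0.01 (95% interval -0.11 to 0.08, adjusted p = 0.878 in limma). The probe was measured on 2 of 7 UNC0638 sides and 1 of 7 DMSO sides, and on neither side under G9a siRNA, so a change in a transcript below the background would not be seen. With plain background subtraction HBB was called lower under G9a siRNA, at -0.80 (adjusted p = 0.0320), from these unmeasured signals.

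HBD, the minor adult delta chain, lay at 0.12, -0.10, 0.15, -0.13 and -0.30 in UNC0638, at 0.04 and 0.05 under WIZ siRNA and at -0.13 and 0.03 under G9a siRNA. The replicates fell on both sides of 0 in UNC0638 and under G9a siRNA. The means were -0.05, 0.05 and -0.05, with adjusted p of 0.713, 1.00 and 0.757 in limma. With the trend on GC content removed, HBD was called higher under G9a siRNA, at 0.38 (adjusted p = 0.0387). HBD counted as measured on 6 of 7 sides of either kind in UNC0638, and under G9a siRNA on 0 of 2 treated sides against 2 of 2 control sides. No fold is given for HBD there. The treated RNA was in Cy5 on both G9a siRNA arrays, where the local background was 52 and 40.5, against 28.5 and 26.5 in Cy3.

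**Figure D3:**
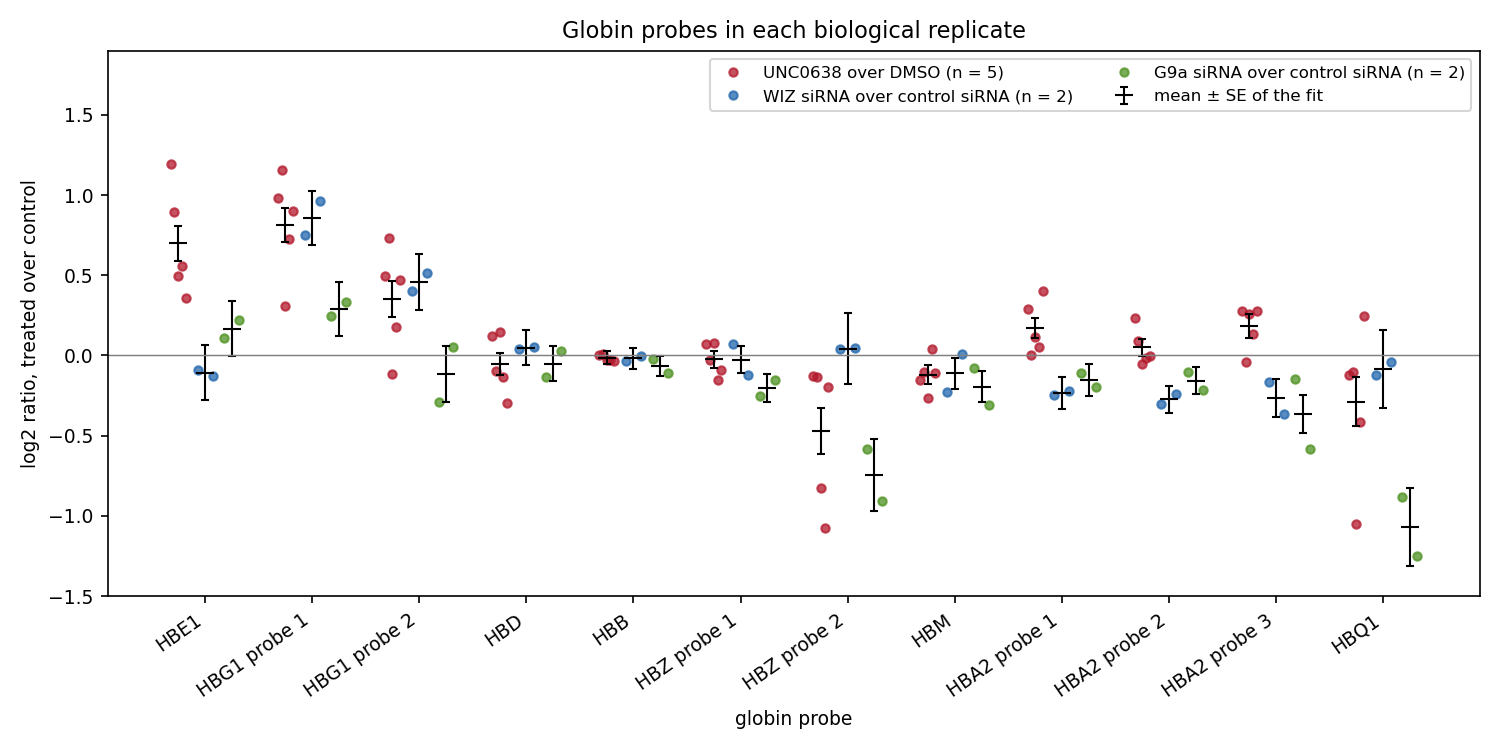
Log2 ratio of treated over control RNA on the vertical axis for the 12 globin probes along the horizontal axis, with a point for each of the 9 biological replicates, coloured by treatment, and the mean with its SE from the fit. HBE1 and HBG1 probe 1 lie above 0 in all 5 UNC0638 replicates, and HBQ1 lies at -0.88 and -1.25 in the G9a siRNA replicates.

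On chromosome 16, the alpha-type genes gave 3 calls, all lower and all under G9a siRNA. These were HBQ1 at 0.477-fold of control, HBZ probe 2 at 0.596-fold and HBA2 probe 3 at 0.776-fold. Under G9a siRNA 33.8% of all probes passed the test, 18.8% downward, and the 3 of 12 lie between these shares of all probes, so nothing is read from the count. All 3 calls, and every other call under G9a siRNA, were lost when G9a siRNA replicate 2 was left out. No alpha-type probe passed in UNC0638 or under WIZ siRNA.

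HBQ1, the theta gene, read 352 and 313 in G9a siRNA RNA against 683 and 1022 in control RNA. Both arrays lay well below 0, at -0.88 and -1.25, and the mean was -1.07 (SE 0.24, n = 2, adjusted p = 0.0096 in limma). The probe has a GC content of 58.3%, and the trend on GC content over all probes stood at -0.56 and -0.72 for probes of 60% GC on these arrays. With that trend removed HBQ1 lay at -0.52, with adjusted p = 0.0499.

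In UNC0638, HBQ1 read 2492, 3394, 3379, 3565, 413, 994 and 1138 in UNC0638 RNA against 3582, 2744, 3740, 3157, 829, 910 and 774 in DMSO RNA, over replicate 1 and replicate 2 with the treated RNA in Cy3 and then Cy5, and then replicates 3 to 5. The replicate log2 ratios were -0.12, -0.11, -1.05, -0.41 and 0.25. Replicate 3 was the lowest, at a value near those of G9a siRNA, and replicate 5 lay on the other side of 0. The mean of -0.29 did not pass the test (SE 0.15, adjusted p = 0.325 in limma), and without replicate 3 it was -0.10. Under WIZ siRNA the values were -0.12 and -0.04, with 0.01 and 0.20 where the treated RNA was in Cy3 and -0.26 and -0.28 where it was in Cy5.

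HBZ, the embryonic zeta chain, has 2 probes. HBZ probe 2 read 181 and 145.5 in G9a siRNA RNA against 284.5 and 376.5 in control RNA, a log2 ratio of -0.58 and -0.91 (mean -0.75, SE 0.22, n = 2, adjusted p = 0.0295 in limma). The probe was measured on 1 of 2 G9a siRNA sides and 2 of 2 control sides. The reading of 145.5, in replicate 2, did not count as measured. In UNC0638 it lay at -0.12, -0.14, -0.82, -1.08 and -0.19, below 0 in all 5 replicates with replicates 3 and 4 the lowest, and the mean of -0.47 did not pass (SE 0.14, adjusted p = 0.119 in limma). Under WIZ siRNA it lay at 0.04 and 0.05. HBZ probe 1 was measured on 1 of 7 sides of either kind in UNC0638 and on none under G9a siRNA, and its 9 values ranged between -0.25 and 0.08. The files give no sequence for either HBZ probe, so the effect of removing the trend on GC content could not be computed for them.

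The 3 HBA2 probes, for the main alpha chains, had means of the same sign within each treatment, above 0 in UNC0638 and below 0 under both siRNAs, and 1 of these 9 means was called, HBA2 probe 3 under G9a siRNA. HBA2 probe 1, which is listed for HBA2 alone, lay at 0.29, 0.00, 0.12, 0.06 and 0.40 in UNC0638. It lay at -0.25 and -0.22 under WIZ siRNA and at -0.11 and -0.19 under G9a siRNA. HBA2 probe 2, which also reads HBA1, lay at 0.23, 0.09, -0.05, -0.02 and -0.00, then at -0.30 and -0.24, and then at -0.10 and -0.21 in the same order of treatments. It was measured on 4 of 7 sides of either kind in UNC0638 and on no side under G9a siRNA. HBA2 probe 3, which reads both genes too, lay at 0.28, -0.04, 0.26, 0.14 and 0.28, then at -0.16 and -0.37, and then at -0.15 and -0.58.

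Under WIZ siRNA the values of the HBA2 probes depended on the dye. With the treated RNA in Cy3, probe 1 lay at 0.24 and 0.00, probe 2 at 0.10 and -0.01 and probe 3 at 0.28 and -0.04. With the treated RNA in Cy5 the same probes lay at -0.74 and -0.44, at -0.70 and -0.48, and at -0.61 and -0.70. The lower mean of the HBA2 probes under WIZ siRNA therefore came from the Cy5 arrays, and the test did not call it (adjusted p = 0.592, 0.315 and 0.623 in limma). HBG1 probe 1, by contrast, lay at 0.57 or above on all 4 WIZ siRNA arrays.

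**Figure D4:**
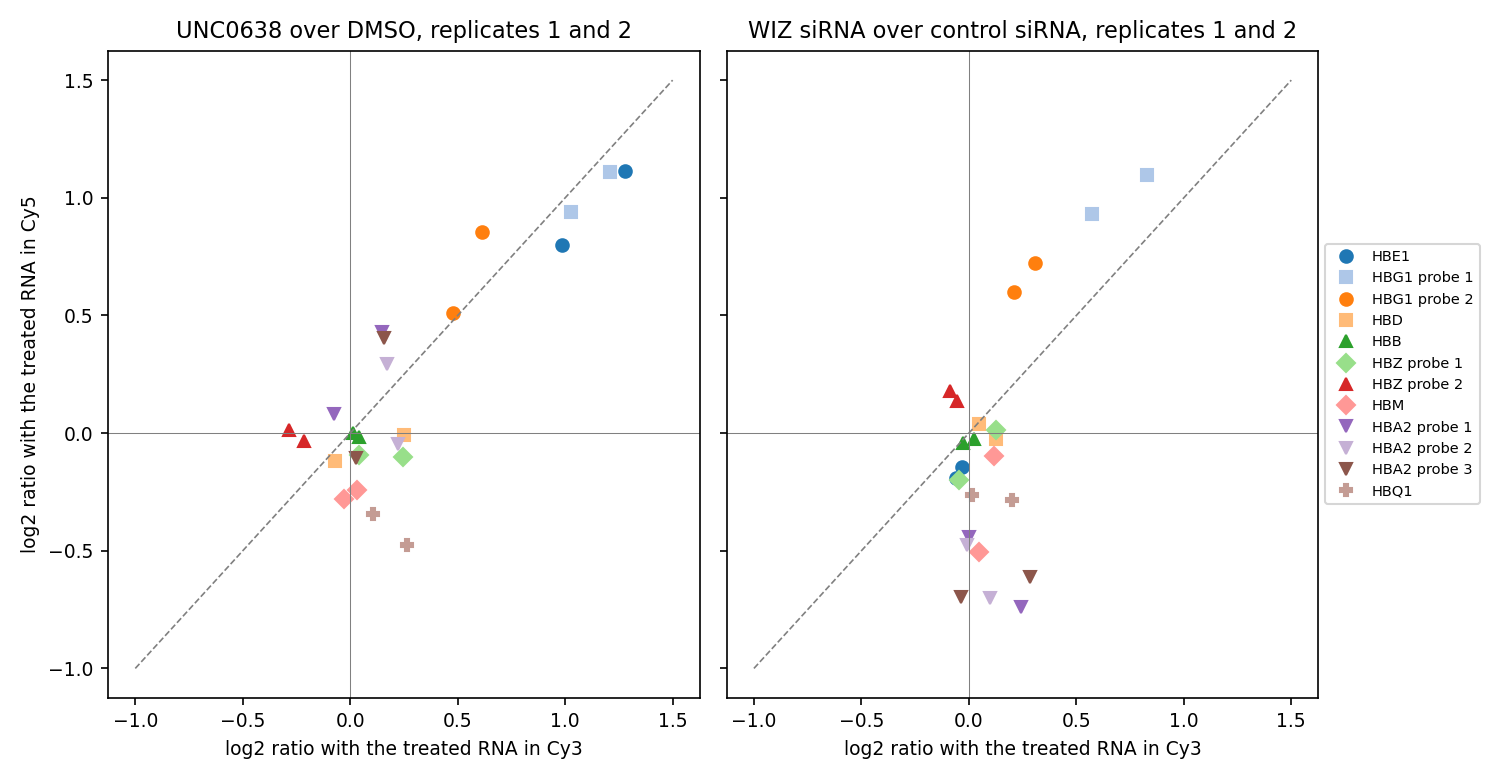
Log2 ratio of treated over control RNA with the treated RNA in Cy3 on the horizontal axis and in Cy5 on the vertical axis, for each globin probe in the dye-swapped replicates of UNC0638 and of WIZ siRNA, with a dashed line where both orientations are equal. HBG1 probe 1 lies above 0 on both axes in both treatments, and the HBA2 probes lie near or above 0 in Cy3 and between -0.74 and -0.44 in Cy5 under WIZ siRNA.

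HBA2 probe 3 was called under G9a siRNA from readings of 208 and 145 in G9a siRNA RNA against 234 and 286 in control RNA (mean -0.37, SE 0.12, n = 2, adjusted p = 0.0397 in limma). Probes 1 and 2 averaged -0.15 and -0.16 on the same arrays and were not called. Both G9a siRNA arrays had the treated RNA in Cy5. With the dye effect of the swapped pairs subtracted, HBA2 probe 3 lay at -0.19 and was not called (adjusted p = 0.337, and lost in 9 of 20 other settings in all), while HBQ1 at -0.82 and HBZ probe 2 at -0.86 were. With the trend on GC content removed, the 2 HBA2 probes with a sequence were instead called higher, at 0.40 and 0.33 (adjusted p = 0.0216 and 0.00899), and HBD was called higher as well. The direction of these 3 probes under G9a siRNA therefore turned with that choice.

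HBM, the mu gene, lay at -0.15, -0.10, -0.27, 0.04 and -0.11 in UNC0638, at -0.23 and 0.01 under WIZ siRNA and at -0.08 and -0.31 under G9a siRNA. No mean passed the test (adjusted p = 0.308, 1.00 and 0.154 in limma). The probe was measured on 1 of 7 UNC0638 sides and 4 of 7 DMSO sides. Under G9a siRNA it was measured on 0 of 2 treated sides, in Cy5, and on 2 of 2 control sides, in Cy3, so no fold is given for HBM there.

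Over all 12 probes the median log2 ratio was 0.02 in UNC0638, -0.05 under WIZ siRNA and -0.15 under G9a siRNA. Over all probes tested it was -0.01, 0.02 and -0.01. In UNC0638 6 of the 12 probes were above 0, under WIZ siRNA 4 and under G9a siRNA 2. All 12 passed the filter on dim probes, and 9 of them, without HBE1, HBB and HBZ probe 1, passed a stricter filter that asks for signal on every array of at least 1 kind of RNA.

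Differences between treatments were tested as contrasts of the treatment means, which also differ in time, vehicle and set of arrays. Of the 12 probes, WIZ siRNA minus UNC0638 called none, where 0.705% of all probes passed and 4 of the 12, HBE1 and the 3 HBA2 probes, had an unadjusted p under 0.05 in limma. G9a siRNA minus UNC0638 called 1, where 12.5% passed, and WIZ siRNA minus G9a siRNA called none, where 20.4% passed and 4 of the 12, both HBG1 probes, HBZ probe 2 and HBQ1, had an unadjusted p under 0.05. The one call was HBA2 probe 3, at -0.55 in G9a siRNA minus UNC0638 (SE 0.14, adjusted p = 0.0380 in limma), from means of -0.37 under G9a siRNA and 0.18 in UNC0638. It was lost without UNC0638 replicates 1, 2 or 4, or without any siRNA replicate except G9a siRNA replicate 1, with adjusted p of 0.0539 to 0.374, and with the dye effect subtracted (adjusted p = 0.0915). In all it was lost in 14 of 23 other settings.

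HBE1 and HBG1 probe 1 stood differently in the contrast of WIZ siRNA with UNC0638. For HBE1 the difference was -0.81 (95% interval -1.26 to -0.35, adjusted p = 0.148 in limma), from means of -0.11 and 0.70. Both WIZ siRNA replicates lay below the lowest UNC0638 replicate, but the share of all probes with such a gap was not computed. No WIZ siRNA array measured HBE1 on both sides, so its values there rest on signals near the background. Within the set of arrays that holds UNC0638 replicates 1 and 2 and WIZ siRNA, the difference was -1.15 with adjusted p = 0.0018, and over all it was called in 7 of 23 other settings. For HBG1 probe 1 the difference was 0.04 (95% interval -0.40 to 0.48, adjusted p = 0.962), from means of 0.86 and 0.82, and the WIZ siRNA values lay within the UNC0638 range. This interval holds differences as low as -0.40 and as high as 0.48 and does not show that the treatments act alike.

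G9a siRNA and UNC0638 replicates 3 to 5 lie in the other set of arrays, so that part of the contrast could be taken within a set. For HBE1, G9a siRNA minus UNC0638 was -0.53 over all replicates (adjusted p = 0.108) and -0.30 within the set (adjusted p = 0.325). For HBG1 probe 1 it was -0.53 over all replicates (95% interval -0.97 to -0.08, adjusted p = 0.105), -0.36 within the set (adjusted p = 0.423) and -0.65 without UNC0638 replicate 3 (adjusted p = 0.00535, all in limma). With 1 replicate left out in turn it ranged from -0.65 to -0.44. In all it was called in 2 of 23 other settings. In WIZ siRNA minus G9a siRNA it was 0.57 (adjusted p = 0.121), and HBQ1 was 0.99 (adjusted p = 0.0709). WIZ siRNA and G9a siRNA each lie in 1 set, so set and treatment cannot be told apart in that contrast.

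**Figure D5:**
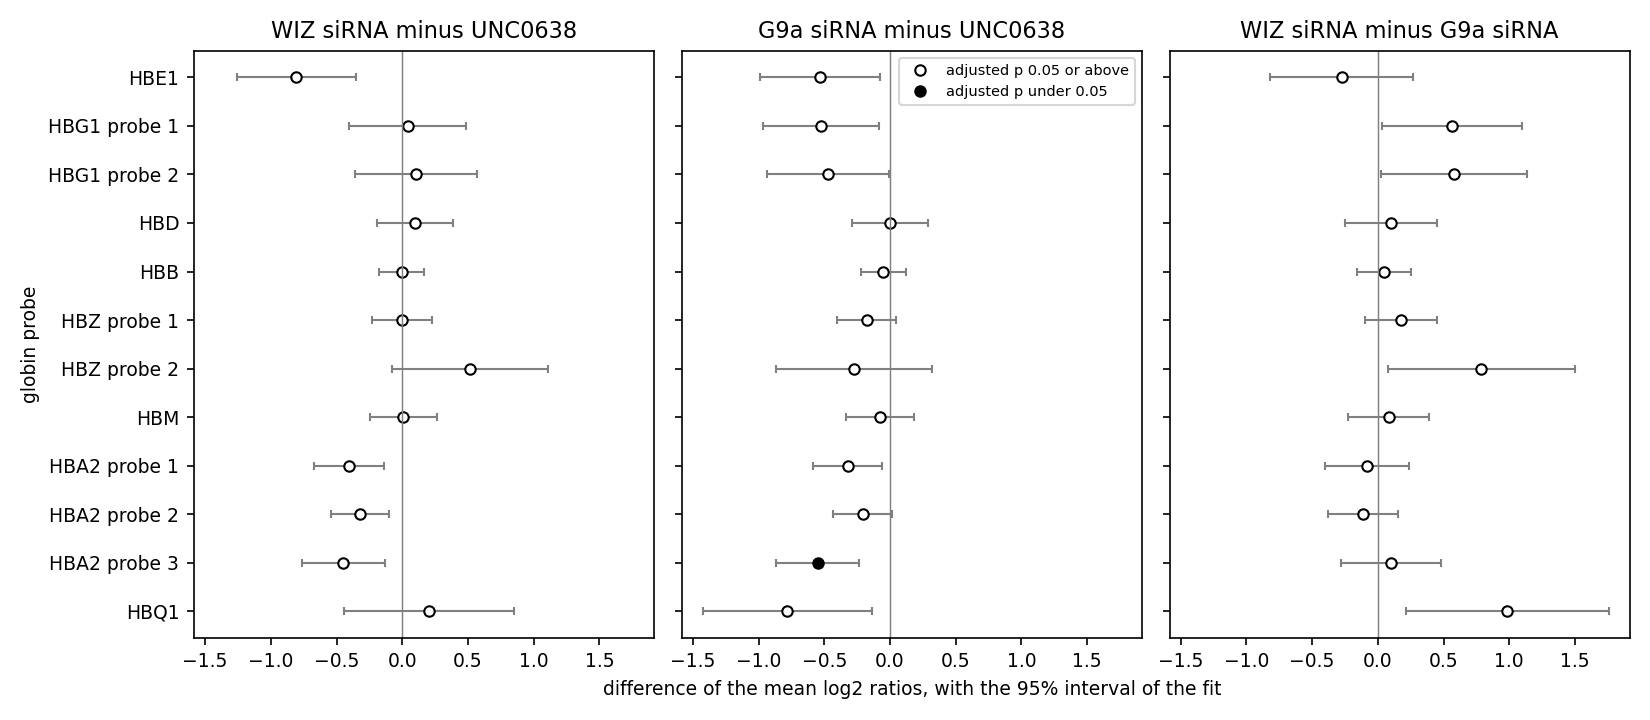
Difference of mean log2 ratios between treatments for the 12 globin probes with 95% intervals, in 1 panel each for WIZ siRNA minus UNC0638, G9a siRNA minus UNC0638 and WIZ siRNA minus G9a siRNA, filled where the adjusted p is under 0.05. The 1 filled point is HBA2 probe 3 at -0.55, and HBE1 lies at -0.81 in WIZ siRNA minus UNC0638 with an interval that does not reach 0.

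Genes for the proteins that control globin genes gave 1 call in UNC0638, BCL11A, and 12 under G9a siRNA. For each gene the brightest probe was used, and over all 28931 genes 3.43% passed in UNC0638 (1.65% higher, 1.78% lower), 0.55% under WIZ siRNA and 33% under G9a siRNA (14.9% higher, 18.1% lower). Of 28 regulators tested, 1 fell in UNC0638, none was called under WIZ siRNA in limma (3 at an unadjusted p under 0.05), and 6 rose and 6 fell under G9a siRNA. BCL11A, the repressor of fetal globin, lay between -0.59 and -0.04 in UNC0638, below 0 in all 5 replicates and on all 4 of its probes (mean -0.33, SE 0.07, adjusted p = 0.0469 in limma). The call was lost in 18 of 26 other settings, among them leaving out any replicate except UNC0638 replicate 2. Under G9a siRNA the largest changes were in NR2F2, a nuclear receptor that binds globin promoters, which rose by 1.43, ZFPM1, the partner of GATA factors, at -1.23, and KLF2, which supports embryonic globin expression in mice, at -0.77. GATA1, the master regulator of red cells, was measured on 6 of 26 array sides and was not tested.

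Of 24 corepressor genes tested, none passed in UNC0638 or under WIZ siRNA in limma (3 and 1 at an unadjusted p under 0.05), and 6 rose and 5 fell under G9a siRNA. MBD3, a subunit of the NuRD complex, lay at -1.21 (SE 0.17), the polycomb gene SUZ12 at 1.03 (SE 0.18) and the deacetylase gene HDAC2 at 0.94 (SE 0.17). Of 21 heme synthesis genes, none passed in UNC0638 or under WIZ siRNA in limma (3 and 2 at an unadjusted p under 0.05), while 3 rose and 11 fell under G9a siRNA. The mitochondrial carrier SLC25A39 lay at -0.91, and the pathway enzyme UROS lay at -0.76. The list's median was -0.29 under G9a siRNA, beside -0.01 over all genes, of which 18.1% were called lower. With the trend on GC content removed, 3 of the 17 heme genes whose probe has a sequence rose and 8 fell, with a median of -0.30.

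Among globins outside the clusters, 2 of 4 genes were tested. CYGB, cytoglobin, lay at -3.69 and -4.21 under G9a siRNA (mean -3.95, SE 0.77, n = 2, adjusted p = 0.00547 in limma). In UNC0638 its mean was -1.19 and not called (adjusted p = 0.220), with a lowest replicate of -3.98 and a highest of -0.04, and under WIZ siRNA it was 0.12. NGB, neuroglobin, lay at 0.03 under G9a siRNA, 0.06 under WIZ siRNA and -0.04 in UNC0638. Leaving out UNC0638 replicate 3 moved the median of CYGB and NGB in UNC0638 from -0.62 to -0.28. With the trend on GC content removed, NGB was called higher under G9a siRNA at 0.46. At an unadjusted p under 0.05, CYGB would pass in UNC0638, and neither gene under WIZ siRNA, in limma. MB and ADGB were too dim to be tested.

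Of 14 neighbours of the beta cluster tested, none passed in UNC0638 or under WIZ siRNA in limma (2 and 0 at an unadjusted p under 0.05). Under G9a siRNA 2 rose, TRIM6 by 0.86, with its other probe of opposite sign, and the olfactory receptor gene OR51I2, which was measured on neither side and lost its call in 8 of 20 other settings. Of 16 neighbours of the alpha cluster, 2 fell in UNC0638, the pancreatic disulfide isomerase gene PDIA2 by 0.52 (SE 0.05, adjusted p = 0.00107) and ARHGDIG by 0.31 (SE 0.06, adjusted p = 0.0271). The ARHGDIG call was lost in 17 of 26 other settings, with -0.07 where the dye effect was subtracted. Under G9a siRNA 13 of the 16 fell, with a median of -0.61, led by the DNA glycosylase gene MPG at -1.41, PGAP6 at -1.23 and the nucleotide kinase gene NME4 at -1.01, which lay at -0.40 and was not called with the dye effect subtracted. With the trend on GC content removed, 7 of 15 fell and 1 rose, with a median of -0.33. None passed under WIZ siRNA in limma (1 at an unadjusted p under 0.05), and the median there was 0.07.

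Of 26 red cell markers with a probe, 11 were measured on all 26 array sides, among them TFRC and EPOR, and AHSP, the alpha globin chaperone, was measured on 7 of 26. Of 23 tested, 2 rose in UNC0638, the transferrin receptor TFRC by 0.36 (adjusted p = 0.0221) and XK by 0.28, and 2 fell, ICAM4 by 0.40 and ANK1 by 0.38. The TFRC call was lost in 14 of 26 other settings, among them leaving out UNC0638 replicate 1, 4 or 5 or either WIZ siRNA replicate, and the ANK1 call in 7 of 26. Under G9a siRNA 4 rose and 6 fell, with carbonic anhydrase CA2 at 0.63, and spectrin SPTB at -0.62 with its other probe of opposite sign. Of 11 markers of other blood cells, HLA-DRA rose in UNC0638 by 0.72 (SE 0.09, adjusted p = 0.00298), and ITGA2B at -0.39 and CD14 at -0.34 were called lower under G9a siRNA. ITGA2B lay at 0.05 with the trend on GC content removed and at -0.05 with the dye effect subtracted, and was called in neither. Of 10 markers of HEK293T cells, 9 were measured on all 26 sides, and KRT18 at -0.50 and ENO2 at -0.34 were called under G9a siRNA. With the dye effect subtracted neither was called, at -0.24 and -0.04, nor was CA2, at 0.26. No marker was called under WIZ siRNA in limma, where 4 red cell, 2 blood cell and 3 HEK293T markers had an unadjusted p under 0.05.

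HBQ1 has the highest mean brightness of the members' probes and was set against 18931 other named genes over the 9 replicates. The closest were the histone gene H2AC13, RPL32P3 and TMEM256, each with a Pearson correlation of 0.996. Their means were -0.22, -0.21 and -0.17 in UNC0638, 0.17, 0.03 and 0.03 with WIZ siRNA, and -1.31, -1.20 and -0.78 with G9a siRNA. The 9 points share arrays, dyes and the trend on GC content, and the correlation is given as a description.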

How the data were processed

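RNA of 9 biological replicates was measured on 13 two-colour arrays, each of 62976 spots, of which 4259 were controls. The deposited per-array files hold each spot's mean intensity and its local background median and SD in both channels, which is what was used here. The same files hold a log2 ratio that, per the file headers, the authors normalized within the array. A matrix of the series deposited by the authors holds log10 ratios, whose column medians lie between -0.01 and 0.0082. Set against the per-array log2 ratios, it gave control over treated on 8 arrays and treated over control on 5, and its exact scale, centring and filter stay unknown. The scanner, its software, the slides and the scan days are not given in the sources used here, nor is a label protocol.

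The intensities were background-corrected with normexp (offset 50) and normalized within each array by loess, spots of a probe were averaged, ratios were turned to treated over control, and both orientations of a swapped pair were averaged into 1 replicate. The headers do not name the dye of each channel, and the dyes were taken from the labels in the order that made WIZ and EHMT2 lower wherever they were knocked down. A probe was tested where its mean exceeded the background median by 2.6 background SDs on at least 0.5 of the arrays of 1 kind of RNA, which left 34619 of 42405 probes.

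The 3 treatment means and their contrasts were fitted in 1 model over all replicates with limma's moderated test (6 residual degrees of freedom, 3.28 from the prior), with Benjamini-Hochberg adjustment over all probes and a threshold of 0.05. The same steps were tested on simulated data. R 4.3.3, limma 3.58.1, Python 3.11.15, pandas 2.3.3 and matplotlib 3.10.9 were used. Probes were named through RefSeq accessions for 25422 probes, through symbols or synonyms for 1544, and as in the files for 1625, and 13814 had no name. The globin probes were found by the files' own symbol. Probe sequences and positions are those of the files on build 37.1, with a sequence for 18553 probes.

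The arrays fall into 2 sets by the lowest Cy3 background SD of any spot, 4 or 5 for UNC0638 replicates 1 and 2 and WIZ siRNA, and 11 for the others; what the sets stand for is not stated. Replicate numbers are shared between treatments, but deviations of same-numbered replicates correlated between -0.28 and 0.37, so the numbers were not taken as pairs. Nothing says that replicates were separate cultures beyond the word biological in the labels, so p-values measure the spread between these samples. From each list up to 3 called genes per treatment are named, by size, and some genes that this rule names are not reported here. The members and the lists were chosen with earlier results of these data known.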

Additional observations from a re-analysis of the deposited data

Results flagged for a closer look

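The difference between G9a siRNA and UNC0638 at HBA2 probe 3, which reads HBA2 and HBA1, is singled out because the 2 treatments' effects differed by a test of the difference itself. G9a siRNA minus UNC0638 was -0.550 on the log2 scale (SE 0.14, adjusted p = 0.0380 in limma), from means of -0.37 under G9a siRNA (n = 2) and 0.18 in UNC0638 (n = 5). The call was lost in 14 of 23 other settings, among them the set of arrays as a block (adjusted p = 0.0743), the second set alone (adjusted p = 0.252) and the dye effect subtracted (adjusted p = 0.0915). The treatments also differ in time, vehicle and dye design. HBA2 probe 3 was the only 1 of the 12 globin probes called in this contrast, where 12.5% of all probes passed. It is printed as 1 spot, and HBA2 probes 1 and 2 were not called. Dixon's test flagged no UNC0638 replicate at any of the 12 globin probes. With 5 values and a critical ratio of 0.71 it can flag only extreme values, so it does not show that the replicates were alike. Over all probes UNC0638 replicate 3 stood apart.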

How the results depend on the processing

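Alternatives changed how many of the 12 globin probes were called, and unless their construction shows it the cause was not tested. With the GC trend removed, only the 7 of the 12 probes with a sequence enter, in every comparison. HBZ probe 2 and HBA2 probe 3 have none and could not be called there. In UNC0638 the 2 calls became 1 with a stricter filter on dim probes, 1 with the brightest probe per gene, 1 with the UNC0638 replicates fitted alone, and 0 with the second set of arrays or replicates 3 to 5 alone, which hold 3 replicates. The count was 2 to 3 when 1 replicate was left out. HBE1 stayed between 0.47 and 1.72 and HBG1 probe 1 between 0.65 and 1.28 over all settings.

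Under WIZ siRNA, with 0 calls, there was 1 with the GC trend removed, 1 from the arrays with treated RNA in Cy3 alone, 4 (1 higher, 3 lower) from those in Cy5 alone, and 5 (2 higher, 3 lower) with the WIZ siRNA replicates fitted alone. Leaving out 1 replicate gave 0 to 1. HBG1 probe 1 stayed between 0.70 and 1.65. Using 1 dye orientation was chosen after seeing the data.

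Under G9a siRNA, the 3 calls became 6 with plain background subtraction, 5 with the authors' log2 ratio and 5 with the GC trend removed, 4 of these higher and 1 lower. They numbered 0 to 3 when 1 replicate was left out, with 0 without G9a siRNA replicate 2. With the GC trend removed, HBD lay at 0.382, HBA2 probe 1 at 0.398, HBA2 probe 2 at 0.328 and ITGA2B at 0.0466, each opposite in sign to the reported value. Without G9a siRNA replicate 2, EHMT2 lay at -1.67 with adjusted p = 0.109 in limma.

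For WIZ siRNA minus UNC0638, with 0 calls, there was 1 with plain subtraction, the authors' log2 ratio, the log10 table or the set of arrays as a block, 2 with the GC trend removed or within the first set, 3 from the Cy5 arrays, and 0 to 0 with 1 replicate left out. For G9a siRNA minus UNC0638, with 1 call, there were 2 with plain subtraction or the authors' log2 ratio, 3 with median centring, 0 with the log10 table, the dye effect subtracted, the GC trend removed, the set as a block, the second set alone, the compared replicates alone or the Cy3 arrays, and 0 to 4 with 1 replicate left out, where 4 came without UNC0638 replicate 3. For WIZ siRNA minus G9a siRNA, with 0 calls, there was 1 with plain subtraction, the authors' log2 ratio, the log10 table or the Cy3 arrays, 3 with the GC trend removed, 4 with the compared replicates alone, and 0 to 3 with 1 replicate left out, where 3 came without UNC0638 replicate 3.

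The replicate number as a block can enter contrasts alone. It gave 1 call in WIZ siRNA minus UNC0638 (HBE1 at -1.15), 7 in G9a siRNA minus UNC0638 and 4 in WIZ siRNA minus G9a siRNA, though the correlations of deviations do not show the numbers to pair the samples.

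Over all probes, the 1122 calls in UNC0638 became 425 with its replicates fitted alone, 32 in the second set alone and 0 in replicates 3 to 5 alone. The 176 calls under WIZ siRNA became 8868 with its replicates fitted alone, 5425 from the Cy3 and 2058 from the Cy5 arrays, 368 without UNC0638 replicate 3 and 77 without a G9a siRNA replicate. The 11702 calls under G9a siRNA became 7187 without its replicate 1 and 0 without its replicate 2. Having 2 replicates per siRNA and signals near background for HBE1, HBB, HBM and HBZ probe 1 limit what could be detected.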
